A study of Mus musculus with 8 samples.

Results

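Oxidative phosphorylation genes were examined in cultured murine lung group 2 innate lymphoid cells (ILC2s), tissue-resident lymphocytes that secrete type 2 cytokines. Their members were taken by name, as gene symbols starting with Nduf, Sdh, Uqcr, Cox4, Cox5, Cox6, Cox7, Cox8 or Atp5, with at least 10 counts in 4 or more libraries. Of the 96 symbols that matched, 90 had enough counts, out of 23183 genes listed in all. They comprised 44 genes of complex I, 8 of complex II, 8 of complex III, 13 of complex IV and 17 of complex V, and 76 of the 90 encode subunits while 14 encode assembly or accessory factors. All cells came from C57BL/6 mice of both sexes, 6 to 10 weeks old, that had received IL-33, and all were cultured with IL-2, IL-7 and IL-33, so both groups carried the same priming. The 4 treated samples received 5 µM Yoda1, a chemical agonist of the mechanosensitive ion channel Piezo1, for 3 h, and the 4 control samples received 0.1% DMSO, its vehicle. Poly(A) RNA was sequenced in bulk, and no source used here says if a group's samples are separate mice or cultures, so p-values measure only the spread between these samples, which may be technical.

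The 5 complexes sit in the inner mitochondrial membrane. Complex I oxidizes NADH and complex II oxidizes succinate, and both pass electrons through ubiquinone to complex III, then by cytochrome c to complex IV, which reduces oxygen. Complexes I, III and IV pump protons, and complex V, the ATP synthase, uses the resulting gradient to make ATP. Apart from complex II, each complex also contains subunits encoded by mitochondrial DNA, which were not analysed here because none of the 13 is listed in the count tables. In lymphocytes this machinery supplies ATP and keeps redox carriers turning over during activation. The comparison asks whether mRNA levels of the nuclear-encoded part differed after a short Piezo1 stimulus.

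Libraries held between 12438009 and 19534653 counts, and the TMM factors that scaled them lay between 0.988 and 1.01. Values are given as normalized CPM, that is counts scaled to a common library total after TMM, and 1 count corresponded to between 0.0512 and 0.0804 CPM. The labelled cell type was checked against lists of marker transcripts, and all 12 listed ILC2 markers passed the filter on low counts. They summed to between 17020 and 17618 CPM in DMSO libraries and between 19107 and 19520 CPM in Yoda1 libraries. By edgeR, 6 of the 12 were called higher after Yoda1 and 1 lower, or 58.3%, against 10.9% of all genes tested. Among markers of other cells, those of T cells (7 of 10 tested) summed to between 70.4 and 85.9 CPM, those of B cells (1 of 6) to between 5.17 and 6.97 CPM, those of macrophages and dendritic cells (2 of 8) to between 8.96 and 11.01 CPM, and those of mast cells and basophils (4 of 6) to between 76.7 and 91.0 CPM. The 8 epithelial and stromal markers (4 tested) summed to between 218 and 232 CPM, nearly all of it Pecam1, and Sftpc, like the B cell factor Pax5, was at 0 counts in all 8 libraries. NK cell markers (6 of 6, among them Prf1 and Gzmb) summed to between 1289 and 1511 CPM in DMSO libraries and between 1522 and 1642 CPM in Yoda1 libraries. Of these 6, 3 were called higher and 0 lower by edgeR, or 50%, against 10.9% of all genes tested. Their log2 fold changes ran from -0.23 to 0.22. Which cells made these transcripts, and their part in the results below, was not tested. In bulk RNA, fewer cells of a type and less RNA per cell cannot be told apart.

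Few of the oxidative phosphorylation genes were called with all 8 libraries. Of the 90, 3 were higher after Yoda1 and 0 were lower by edgeR (quasi-likelihood test, Benjamini-Hochberg adjusted p under 0.05 across the 12239 genes with enough counts), which is 3.33% of the members, against 10.9% of all genes tested. Without DMSO replicate 1 these shares were 14.4% and 12.1%, with 13 members higher. By direction, 6.04% of all genes were called higher and 4.84% called lower, 739 and 592 genes (553 and 809 when libraries were scaled by size alone, 505 and 958 with upper-quartile factors). The 3 genes were Atp5j of complex V and Uqcrfs1 and Uqcr10 of complex III. At an unadjusted p under 0.05, 14 of the 90 passed, or 15.6%, against 25.3% of all genes tested. The groups did not overlap for 5 members, or 5.56%, against 15.5% of all genes tested, and these were Atp5j, Uqcrfs1, Uqcr10, Uqcrc2 and Ndufaf1. The count of members called by DESeq2, 3 higher and 0 lower, was equal, and so was that by limma-voom.

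The data also bound how far the members, called or not, could have moved. For 71 of the 90 members, or 78.9%, the 95% interval of the fold change lay wholly within 1.2-fold in either direction, against 56.9% of all genes tested. By role this held for 65 of the 76 subunits and for 6 of the 14 assembly and accessory factors. The called Uqcrfs1 is among those within 1.2-fold. The median SE of the log2 fold change was 0.052 over the members, against 0.066 over all genes tested. The 19 exceptions include the called Atp5j and Uqcr10, whose intervals begin above 0, as do those of Atp5k, Cox6b2 and Ndufs6, which were not called. The intervals of Ndufb3 and Atp5s, also not called, lie wholly below 0. The scarce Cox7a1, Sdhaf3, Ndufs5 and Atp5s had the widest intervals. The members' log2 fold changes ran from -0.36 for Atp5s to 0.20 for Atp5j, with a median of 0.024 over the 90 members and of -0.0053 over all genes tested. Of the members 60 lay above 0, but this count depends on the scaling: with library size only 47 lay above 0 and the median was 0.0021, and with upper-quartile factors 41 lay above 0 and the median was -0.0070, while the median of all genes moved to -0.027 and -0.036.

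**Figure D1:**
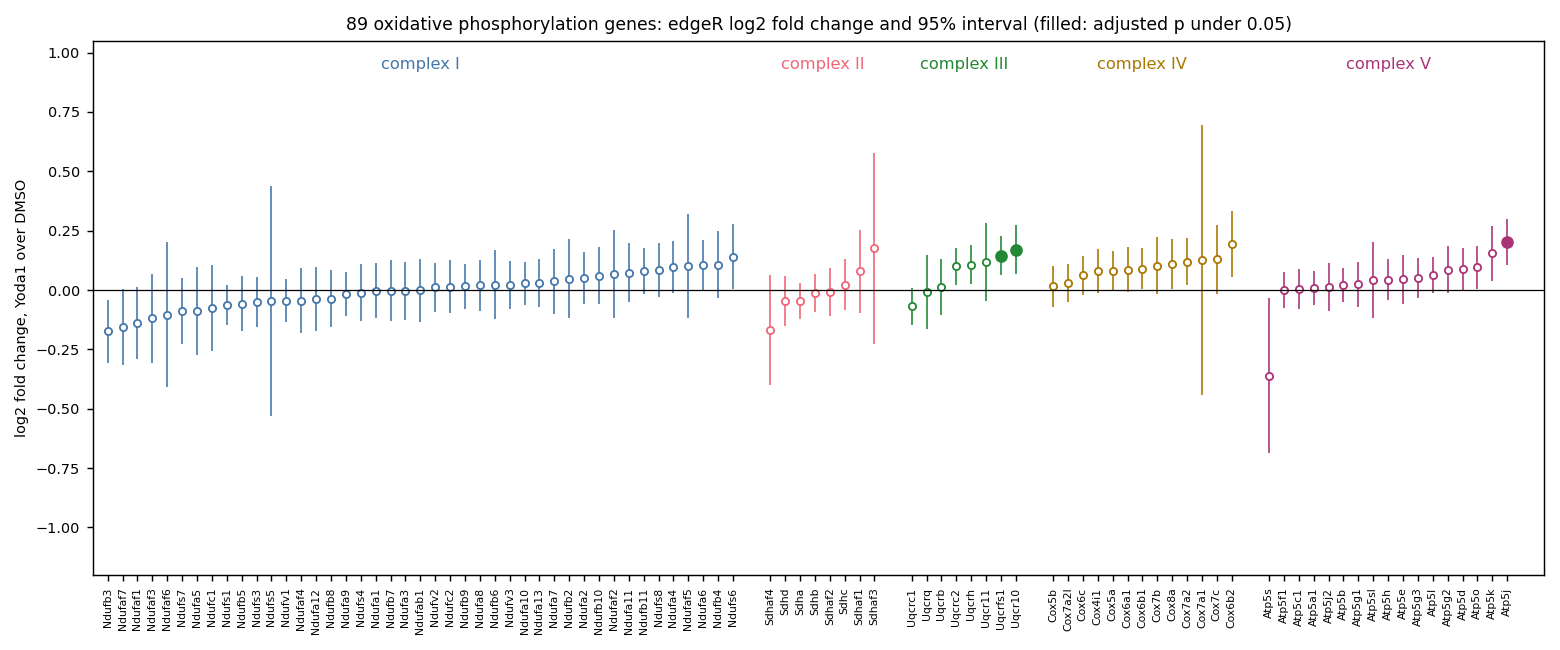
Log2 fold change of 89 of the 90 genes (vertical axis, Yoda1 over DMSO, with the 95% interval from edgeR as a bar), ordered within complex I to V along the horizontal axis. Filled points mark the 3 genes with an adjusted p under 0.05, and the points of complex IV all lie above 0 while those of complex I lie on both sides.

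The promoters of the genes that rose are shown so that the letters around their starts can be read, and Uqcrc1, an abundant gene of complex III that was not called, is printed last beside the called genes of that complex. Each window is a RefSeq promoter of GRCm38.p6, from 250 bases before to 50 bases after a start site, written 5′ to 3′ on the strand of its gene. Matches to 4 motifs are in capitals where they occur on either strand: GCGCANGCG, the letters bound by the respiratory factor NRF1; CCGGAAG, bound by ETS factors such as GABPA; AAGATGGC, bound by YY1; and TGACGTCA, the cAMP response element (CRE). Uqcrfs1, minus strand of chr13:30545267-30545566, holds a CRE that starts at base 222 of its window. Uqcr10, minus strand of chr11:4704295-4704594, holds none of the 4 motifs. Atp5j has 2 start sites listed, and the downstream window, minus strand of chr16:84834927-84835226, holds a YY1 match at base 163 and an ETS match at base 190, while the upstream window at chr16:84835576-84835875 holds none of the 4. Uqcrc1, plus strand of chr9:108936398-108936697, holds 3 NRF1 matches, at bases 257, 281 and 282, of which the last pair overlap as one run.

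Uqcrfs1: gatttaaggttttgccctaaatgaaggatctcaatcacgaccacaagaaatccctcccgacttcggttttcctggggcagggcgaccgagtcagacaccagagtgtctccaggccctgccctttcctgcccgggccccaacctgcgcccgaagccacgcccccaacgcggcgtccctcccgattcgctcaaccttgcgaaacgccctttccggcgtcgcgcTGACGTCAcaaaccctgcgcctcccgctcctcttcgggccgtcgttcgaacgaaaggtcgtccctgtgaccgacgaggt
Uqcr10: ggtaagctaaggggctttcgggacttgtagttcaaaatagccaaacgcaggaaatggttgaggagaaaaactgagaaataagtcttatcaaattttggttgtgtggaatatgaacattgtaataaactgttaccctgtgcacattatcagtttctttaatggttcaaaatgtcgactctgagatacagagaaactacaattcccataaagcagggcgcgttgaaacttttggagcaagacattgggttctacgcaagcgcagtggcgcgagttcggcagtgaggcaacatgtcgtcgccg
Atp5j, downstream start: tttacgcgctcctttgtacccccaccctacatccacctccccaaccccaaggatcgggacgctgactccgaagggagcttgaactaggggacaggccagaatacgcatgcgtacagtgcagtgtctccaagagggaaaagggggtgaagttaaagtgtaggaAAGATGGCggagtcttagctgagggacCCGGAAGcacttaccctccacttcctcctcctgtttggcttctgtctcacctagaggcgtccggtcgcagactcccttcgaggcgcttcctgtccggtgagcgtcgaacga
Atp5j, upstream start: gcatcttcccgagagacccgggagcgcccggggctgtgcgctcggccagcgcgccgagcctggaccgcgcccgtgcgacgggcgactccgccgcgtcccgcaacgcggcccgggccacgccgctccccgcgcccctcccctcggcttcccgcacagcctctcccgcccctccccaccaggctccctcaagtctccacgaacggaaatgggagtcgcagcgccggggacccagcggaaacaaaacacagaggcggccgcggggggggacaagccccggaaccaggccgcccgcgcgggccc
Uqcrc1: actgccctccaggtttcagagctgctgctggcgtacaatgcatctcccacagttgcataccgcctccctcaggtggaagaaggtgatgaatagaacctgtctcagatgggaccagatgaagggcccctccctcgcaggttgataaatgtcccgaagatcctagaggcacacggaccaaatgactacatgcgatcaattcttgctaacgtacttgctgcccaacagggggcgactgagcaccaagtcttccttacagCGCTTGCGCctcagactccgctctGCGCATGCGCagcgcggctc

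Over all members, 78 of the 90 were matched to a promoter and searched. NRF1 letters occurred in 24 of these genes, or 30.8%, against 15.7% of the 9319 tested genes with a promoter and 6.25% of all 32851 promoters. YY1 letters occurred in 11 genes, or 14.1%, against 5.49% of tested genes and 2.75% of all promoters, and ETS letters in 20 genes, or 25.6%, against 20.8% and 8.86%. The CRE occurred in 4 member genes (Ndufa10, Ndufa11, Ndufb2 and Uqcrfs1), or 5.13%, against 3.72% of tested genes and 1.79% of all promoters. A further pair of motifs was searched on both strands but not capitalised above. GGGCGG, the letters bound by SP factors, was in 47.4% of member genes, below the 69.1% of tested genes but above the 35.7% of all promoters. TATAAA was in 7.69% of member genes, against 8.36% and 13.6%. These windows therefore carried NRF1 and YY1 letters at higher rates than promoters of other genes that these cells express, as a description of the letters only. The median log2 fold change was 0.062 in the 24 genes with NRF1 letters and 0.022 in the 54 without, and it was -0.0026 in the 11 with YY1 letters and 0.037 in the 67 without, given as a description with no test.

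Complex III held 2 of the 3 called genes, or 25% of its 8 genes, against 10.9% of all genes tested. At an unadjusted p under 0.05 by edgeR 4 of the 8 passed, or 50%, against 25.3%. The groups did not overlap for 3 of the 8, or 37.5%, against 15.5%. Of its 8 genes, 6 lay above 0 (5 with library size only or with upper-quartile factors). Uqcrfs1 encodes the Rieske iron-sulfur protein, which hands electrons from ubiquinol towards cytochrome c1. It measured 103, 92.6, 96.7 and 96.7 CPM in DMSO replicates 1 to 4, and 106, 106, 109 and 108 CPM in Yoda1 replicates 1 to 4. All 4 Yoda1 libraries lay above all 4 DMSO libraries, and the Yoda1 values were close together. Uqcrfs1 rose from 97.2 ± 4.22 to 107 ± 1.27 CPM (SD, n = 4 per group), with a log2 fold change of 0.14 with SE 0.041 and an adjusted p of 0.0192 by edgeR (exact permutation test, two-sided, p = 0.0286, the smallest that 4 against 4 allow). The gene lies on the minus strand of chromosome 13, from 30540308 to 30545362 in GRCm38, with 2 exons in a transcript of 1363 bases. Its adjusted p was 0.0934 without DMSO replicate 2 and 0.0607 without Yoda1 replicate 4, and 0.0684 with upper-quartile factors.

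Uqcr10 encodes a small subunit that sits beside the Rieske protein and cytochrome c1. Its DMSO libraries measured 66.8, 58.7, 61.5 and 64.2 CPM, and its Yoda1 libraries 70.9, 67.5, 77.4 and 67.3 CPM. The groups did not overlap, although the lowest Yoda1 library stood only just above the highest DMSO library. Uqcr10 rose from 62.8 ± 3.47 to 70.8 ± 4.70 CPM, with a log2 fold change of 0.17 with SE 0.051 and an adjusted p of 0.0262 by edgeR. Its gene, on the minus strand of chromosome 11 from 4701973 to 4704342, has 2 exons and a transcript of 434 bases. This call was the least steady of the 3, with an adjusted p of 0.128, 0.0704, 0.0650 and 0.116 when DMSO replicate 2, DMSO replicate 3, Yoda1 replicate 1 or Yoda1 replicate 3 was left out, and of 0.0529 with library size only and 0.0690 with upper-quartile factors.

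The other 6 genes of complex III were not called. Uqcrc2, one of the paired core proteins, measured 142, 137, 133 and 132 CPM in DMSO libraries and 143, 146, 147 and 147 CPM in Yoda1 libraries. These groups did not overlap, and the log2 fold change was 0.10 with an adjusted p of 0.0861 by edgeR. Uqcrc1, which encodes the other core protein, had an estimate of the opposite sign. It measured 159, 155, 149 and 146 CPM in DMSO libraries and 145, 141, 151 and 144 CPM in Yoda1 libraries, and Yoda1 replicate 3 lay among the DMSO values. Its log2 fold change was -0.069 (95% interval -0.15 to 0.0100) with an adjusted p of 0.270 by edgeR. Uqcrh, the acidic hinge protein at the cytochrome c docking site, had a log2 fold change of 0.11 and an adjusted p of 0.0901 by edgeR. The small subunits Uqcr11, Uqcrb and Uqcrq had log2 fold changes of 0.12, 0.013 and -0.0071. The median of complex III was 0.10, and between 0.071 and 0.13 when a library was left out. Cytochrome c1 itself, encoded by Cyc1 outside the naming rule, measured 67.6 ± 4.70 CPM in DMSO and 67.3 ± 3.81 CPM in Yoda1 libraries, a log2 fold change of -0.0065.

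**Figure D2:**
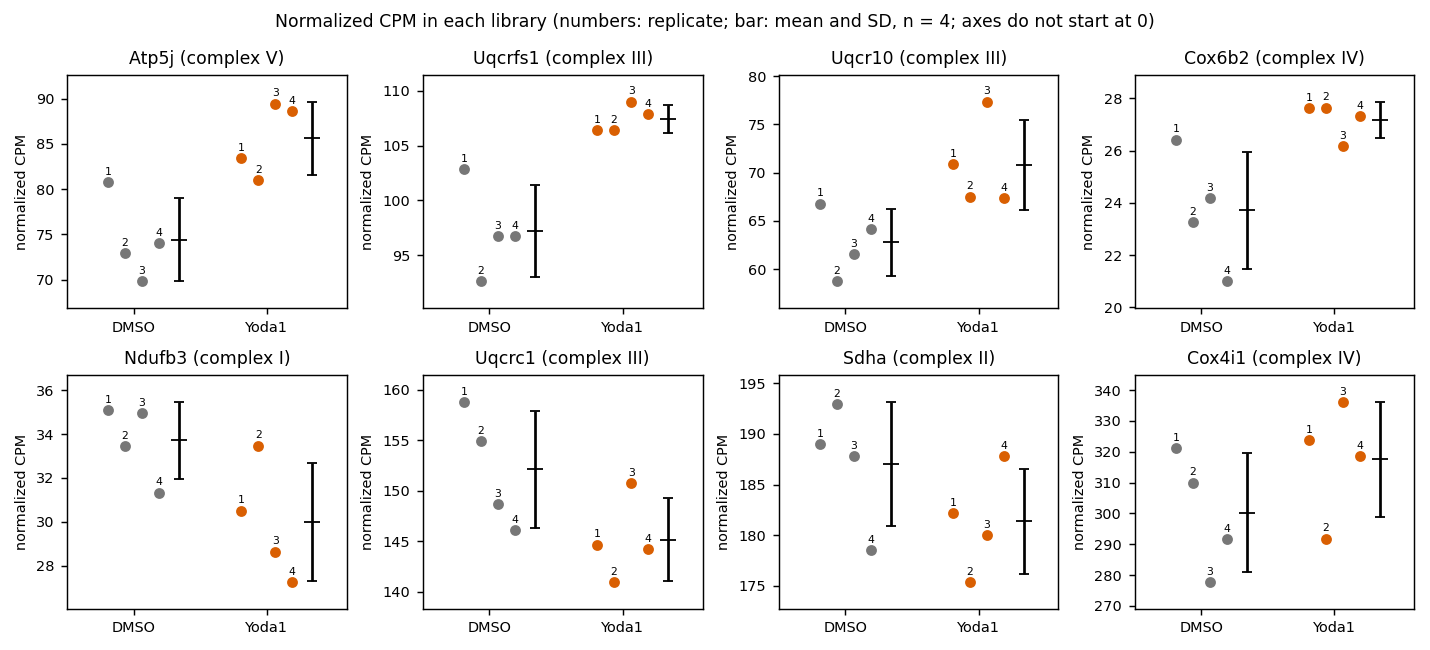
Normalized CPM (vertical axes, not starting at 0) of 8 genes in each of the 4 DMSO and 4 Yoda1 libraries, with replicate numbers at the points and the mean and SD (n = 4) beside them. The groups do not overlap for Atp5j, Uqcrfs1 and Uqcr10, nearly separate for Cox6b2, and overlap for Ndufb3, Uqcrc1, Sdha and Cox4i1.

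Complex V had 1 called gene of 17, or 5.88%, against 10.9% of all genes tested. At an unadjusted p under 0.05 by edgeR 4 of the 17 passed, or 23.5%, against 25.3%. The call in this complex was the steadiest of the 3. Atp5j encodes coupling factor 6, part of the peripheral stalk that holds the catalytic head of the ATP synthase still while its rotor turns. It measured 80.8, 72.9, 69.9 and 74.1 CPM in DMSO libraries and 83.4, 81.0, 89.5 and 88.6 CPM in Yoda1 libraries. The groups did not overlap, with DMSO replicate 1 just under the lowest Yoda1 library. Atp5j rose from 74.4 ± 4.61 to 85.6 ± 4.06 CPM, with a log2 fold change of 0.20 with SE 0.047, or 1.15-fold, and an adjusted p of 0.00477 by edgeR (exact permutation test, two-sided, p = 0.0286). It stayed under 0.05 in all 15 alternative fits, with a highest adjusted p of 0.0322. The gene spans 84827866 to 84835625 on the minus strand of chromosome 16, with 5 exons in a transcript of 809 bases. Exons of Gabpa, which encodes the DNA-binding subunit of an ETS factor and runs on the opposite strand, overlap its exons, and since the strand setting of the counting is not given in the sources used here, reads of the pair cannot be told apart in the overlap. Gabpa measured 70.5 ± 1.55 and 73.4 ± 3.54 CPM, a log2 fold change of 0.057 with an adjusted p of 0.466 by edgeR.

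The catalytic head did not show the change of Atp5j. Atp5b, the catalytic beta subunit and the most abundant member, measured 855, 848, 811 and 800 CPM in DMSO libraries and 826, 818, 871 and 847 CPM in Yoda1 libraries. Atp5a1, the alpha subunit, measured 576, 554, 543 and 542 CPM in DMSO libraries and 552, 538, 572 and 566 CPM in Yoda1 libraries. Both genes were interleaved between the groups. Their log2 fold changes were 0.021 (95% interval -0.051 to 0.093) and 0.0076 (-0.064 to 0.079), with adjusted p of 0.773 and 0.925 by edgeR, so a shift beyond about 1.07-fold is outside both intervals. Among the rest of the stalk, Atp5o, the oligomycin sensitivity protein that caps it, had a log2 fold change of 0.097, Atp5h 0.043 and Atp5f1 0.00050, with adjusted p of 0.170, 0.568 and 0.995 by edgeR. Atp5k, subunit e at the dimer interface, had a log2 fold change of 0.15 and an adjusted p of 0.0752, and Atp5c1, Atp5d and Atp5e, which form the central stalk, had 0.0048, 0.088 and 0.045.

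The Atp5 name also covers a pair of accessory genes. Atp5s, also known as factor B, had the most negative estimate of all 90 members, -0.36 (95% interval -0.69 to -0.035), from 4.27 ± 0.675 CPM in DMSO to 3.27 ± 0.453 CPM in Yoda1 libraries. It was read at between 40 and 76 counts per library, Yoda1 replicate 4 lay among the DMSO values, and the adjusted p was 0.150 by edgeR. Atp5sl, whose product is known as an assembly factor of the membrane arm of complex I, measured 18.5 ± 1.25 and 19.1 ± 1.81 CPM. Of the 17 genes of complex V, 16 lay above 0 with a median of 0.043. With library size only 11 lay above 0, and with upper-quartile factors 10, the medians being 0.022 and 0.012.

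Complex IV, cytochrome c oxidase, had 0 called genes by edgeR, DESeq2 or limma-voom and 4 of 13 at an unadjusted p under 0.05, or 30.8% against 25.3% of all genes tested, and all 13 of its genes lay above 0, with a median log2 fold change of 0.090 (12 of 13 and 0.069 with library size only, 11 of 13 and 0.059 with upper-quartile factors). Cox4i1, a subunit of the regulatory kind and the most abundant member of the complex, measured 321, 310, 278 and 292 CPM in DMSO libraries and 324, 292, 336 and 319 CPM in Yoda1 libraries. The groups overlapped, and the log2 fold change was 0.080 (95% interval -0.014 to 0.17) with an adjusted p of 0.281 by edgeR. Cox5b, which binds zinc on the matrix side, was nearest to 0, with 106 ± 3.30 and 107 ± 5.22 CPM and a log2 fold change of 0.016. Cox6b2 was farthest from 0 and is known chiefly from testis. It measured 26.4, 23.3, 24.2 and 20.99 CPM in DMSO libraries and 27.6, 27.6, 26.2 and 27.3 CPM in Yoda1 libraries, so that DMSO replicate 1 alone stood among the Yoda1 values. Its log2 fold change was 0.19 with SE 0.068 and an adjusted p of 0.0620 by edgeR, and 0.25 with an adjusted p of 0.0144 without DMSO replicate 1.

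The paralogs of complex IV and its neighbours were expressed in the ubiquitous rather than the tissue-restricted form. Cox4i2, Cox6a2, Cox7b2, Cox8b, Cox8c and Ndufa4l2, paralogs known mainly from lung, heart, muscle, testis or hypoxic cells, fell under the rule on counts, and each was read at no more than 5 counts in a library, Cox8b at 0 in all 8. Cox7a1, the heart and muscle form, passed with 13 to 24 counts per library and measured 1.13 ± 0.203 CPM in DMSO and 1.27 ± 0.450 CPM in Yoda1 libraries. It stood at 1.30% ± 0.200 and 1.34% ± 0.452 (SD, n = 4) of the CPM of Cox7a2, the ubiquitous form, and at 2.21% per transcript length. Cox6b2 was the exception, at 18.9% ± 1.37 of the CPM of its ubiquitous paralog Cox6b1 in DMSO libraries and 20.5% ± 1.49 in Yoda1 libraries, and at 22.0% per transcript length over all 8 libraries. Cox6b2 has no pseudogene transcript with at least 95% identity over 100 bases in GENCODE M21. Cox6b1, Cox6a1, Cox7a2 and Cox8a, the ubiquitous forms, had log2 fold changes of 0.090, 0.085, 0.12 and 0.11 and adjusted p of 0.171, 0.249, 0.117 and 0.175 by edgeR. Cox7a2l, counted here among the assembly and accessory factors, measured 216 ± 11.4 and 220 ± 6.24 CPM, a log2 fold change of 0.030.

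Complex I, the largest complex, had 0 called genes by edgeR, DESeq2 or limma-voom and 2 at an unadjusted p under 0.05, or 4.55% against 25.3% of all genes tested, with 22 of its 44 genes above 0 and a median of 0.0046 (16 genes and -0.017 with library size only, 13 genes and -0.026 with upper-quartile factors). Ndufv1, which holds the flavin where NADH is oxidized, measured 71.3 ± 2.50 CPM in DMSO and 69.1 ± 2.68 CPM in Yoda1 libraries. Ndufs1, the large iron-sulfur subunit of the same arm, measured 88.9 ± 1.88 and 85.1 ± 2.14 CPM, a log2 fold change of -0.064 (95% interval -0.15 to 0.020) and an adjusted p of 0.348 by edgeR. Ndufa13, also known as GRIM-19 and among the most abundant genes of the complex, had a log2 fold change of 0.029. For these 3 genes the groups overlapped. The 11 Ndufs and Ndufv genes, most of which form the peripheral arm, had a median of -0.011, the 14 Ndufa genes 0.025 and the 10 Ndufb genes 0.019.

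Ndufb3, a small membrane-arm subunit, had the most negative estimate of complex I. It measured 35.1, 33.5, 35.0 and 31.3 CPM in DMSO libraries and 30.5, 33.5, 28.6 and 27.3 CPM in Yoda1 libraries. Yoda1 replicate 2 lay level with DMSO replicate 2, while the remaining 3 Yoda1 libraries were below all DMSO libraries. The log2 fold change was -0.17 with SE 0.065 and an adjusted p of 0.0812 by edgeR, and the adjusted p was 0.0464 with library size only, 0.0363 with upper-quartile factors and 0.0196 without Yoda1 replicate 2. Ndufb3 also matches 1 pseudogene transcript over 282 bases. Ndufs6, a zinc-binding subunit, lay at the other end with 0.14 and an adjusted p of 0.185. Ndufa4, named for complex I but since placed in complex IV, had 0.096 and an adjusted p of 0.267, an estimate near the median of complex IV.

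Of the 7 complex I assembly factors, Ndufaf1 to Ndufaf7, 0 were called by edgeR, DESeq2 or limma-voom, against 10.9% of all genes tested by edgeR. At an unadjusted p under 0.05 by edgeR 0 of the 7 passed, against 25.3%. The 95% interval lay within 1.2-fold for only 2 of the 7, or 28.6%, against 56.9% of all genes tested. Above 0 lay 2 of the 7, with a median log2 fold change of -0.10. Ndufaf1 measured 17.5, 16.5, 18.1 and 17.6 CPM in DMSO libraries and 16.5, 15.7, 15.1 and 15.9 CPM in Yoda1 libraries. Its groups did not overlap, by a narrow margin, and the log2 fold change of -0.14 had an adjusted p of 0.243 by edgeR. It was the only 1 of the 7 without overlap, or 14.3%, against 15.5% of all genes tested. Over all 14 assembly and accessory factors the median was -0.026, against 0.026 over the 76 subunits.

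Complex II, succinate dehydrogenase, also belongs to the TCA cycle, and it had 0 called genes by edgeR, DESeq2 or limma-voom and 0 of 8 at an unadjusted p under 0.05, against 25.3% of all genes tested. Sdha, its flavoprotein, measured 189, 193, 188 and 178 CPM in DMSO libraries and 182, 175, 180 and 188 CPM in Yoda1 libraries, and Sdhb, its iron-sulfur protein, measured 116 ± 2.36 and 115 ± 3.83 CPM. The groups overlapped for both, with log2 fold changes of -0.045 (95% interval -0.12 to 0.031) and -0.014 (-0.094 to 0.066). Sdhc and Sdhd, the membrane anchors, had 0.023 and -0.046. The largest and smallest estimates of the complex belonged to the scarce assembly factors Sdhaf3, at 0.18 with 28 to 59 counts per library, and Sdhaf4, at -0.17 with 85 to 153 counts. The median over the 8 genes was -0.011.

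Levels differed between complexes far more than between treatments. Per kilobase of transcript, to compare genes of unequal length, the median subunit stood at 45.4 CPM per kb in complex I, 55.1 in complex II, 82.5 in complex III, 164 in complex IV and 187 in complex V. The median of all genes tested was 10.2 CPM per kb, and 49 of the 90 members stood above the 90th percentile of all genes. Atp5b, at 436 CPM per kb, and Cox4i1, at 415 CPM per kb, were highest. The assembly factors of complex I ran from 3.86 to 16.6 CPM per kb and overlapped the lowest subunits of that complex, which began at 11.1 CPM per kb. For the c subunit of the ATP synthase, which forms the rotor ring and is encoded by 3 genes with the same mature product, Atp5g2 stood at 332, Atp5g3 at 229 and Atp5g1 at 12.4 CPM per kb. These figures rest on 1 transcript per gene: with the shortest or longest listed transcript, Atp5g1 ran from 12.3 to 97.3 and Atp5g2 from 200.2 to 332 CPM per kb, and both match 2 pseudogene transcripts. The log2 fold changes of the 3 were 0.086 for Atp5g2, 0.051 for Atp5g3 and 0.024 for Atp5g1, none of them called.

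**Figure D3:**
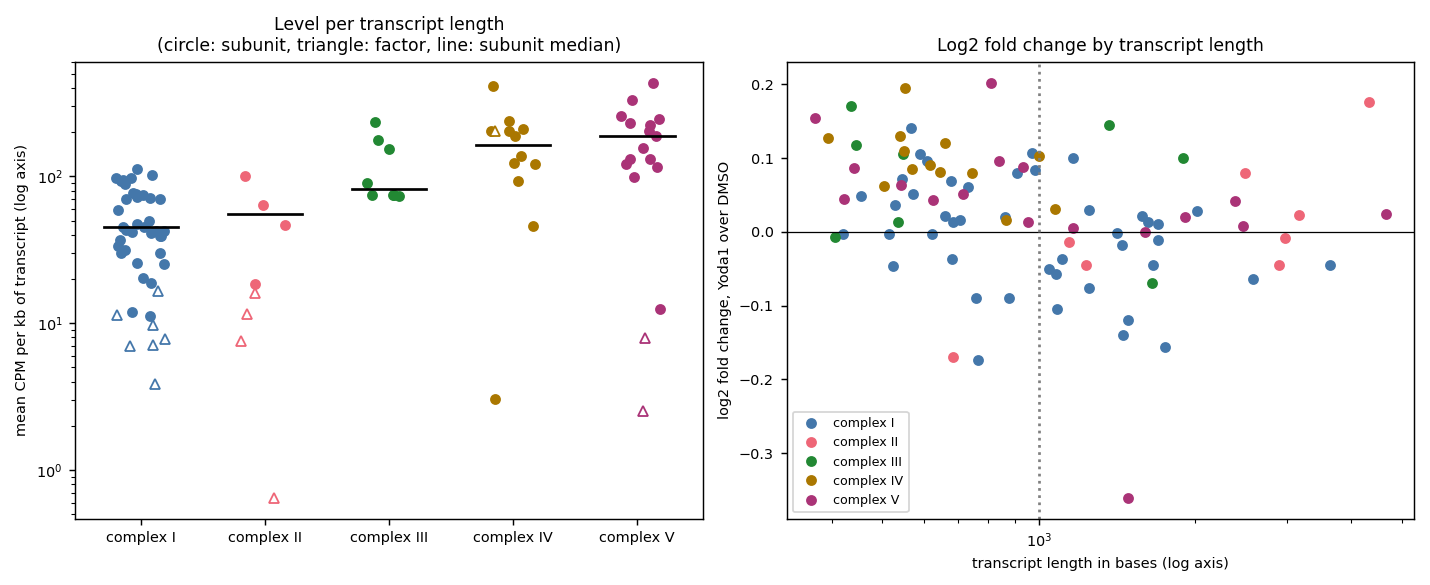
Left, mean CPM per kb of transcript (log axis) of each gene by complex, with circles for subunits, triangles for assembly or accessory factors and a line at the subunit median, which rises from 45.4 in complex I to 187 in complex V. Right, log2 fold change against transcript length (log axis), where 41 of the 51 genes shorter than 1000 bases (left of the dotted line) and 19 of the 39 longer genes lie above 0.

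The small shifts moved with individual libraries. DMSO replicate 1 was the highest DMSO library for 72 of the 90 members, or 80.0%, against 30.1% of all genes tested, and Yoda1 replicate 3 was the highest Yoda1 library for 57, or 63.3%, against 28.8%. All members together summed to 8034, 7573, 7296 and 7380 CPM in DMSO replicates 1 to 4 and to 7687, 7517, 8104 and 7779 CPM in Yoda1 replicates 1 to 4. The 2 highest libraries thus stood in different groups, and the spread within each group, 7571 ± 330 and 7772 ± 247 CPM (SD, n = 4), exceeded the difference of the means. Transcripts of cytosolic ribosomal proteins had the same 2 libraries on top, DMSO replicate 1 in 95.2% and Yoda1 replicate 3 in 84.5% of 84 genes. Of these 84 genes, 10 were called higher and 0 lower, or 11.9%, against 10.9% of all genes tested in either direction and 6.04% higher. The groups did not overlap for 3.57% of them, against 15.5%. Above 0 lay 81, with a median of 0.068 (76 and 0.046 with library size only, 74 and 0.037 with upper-quartile factors). The part of this shared library pattern in the results was not tested.

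**Figure D4:**
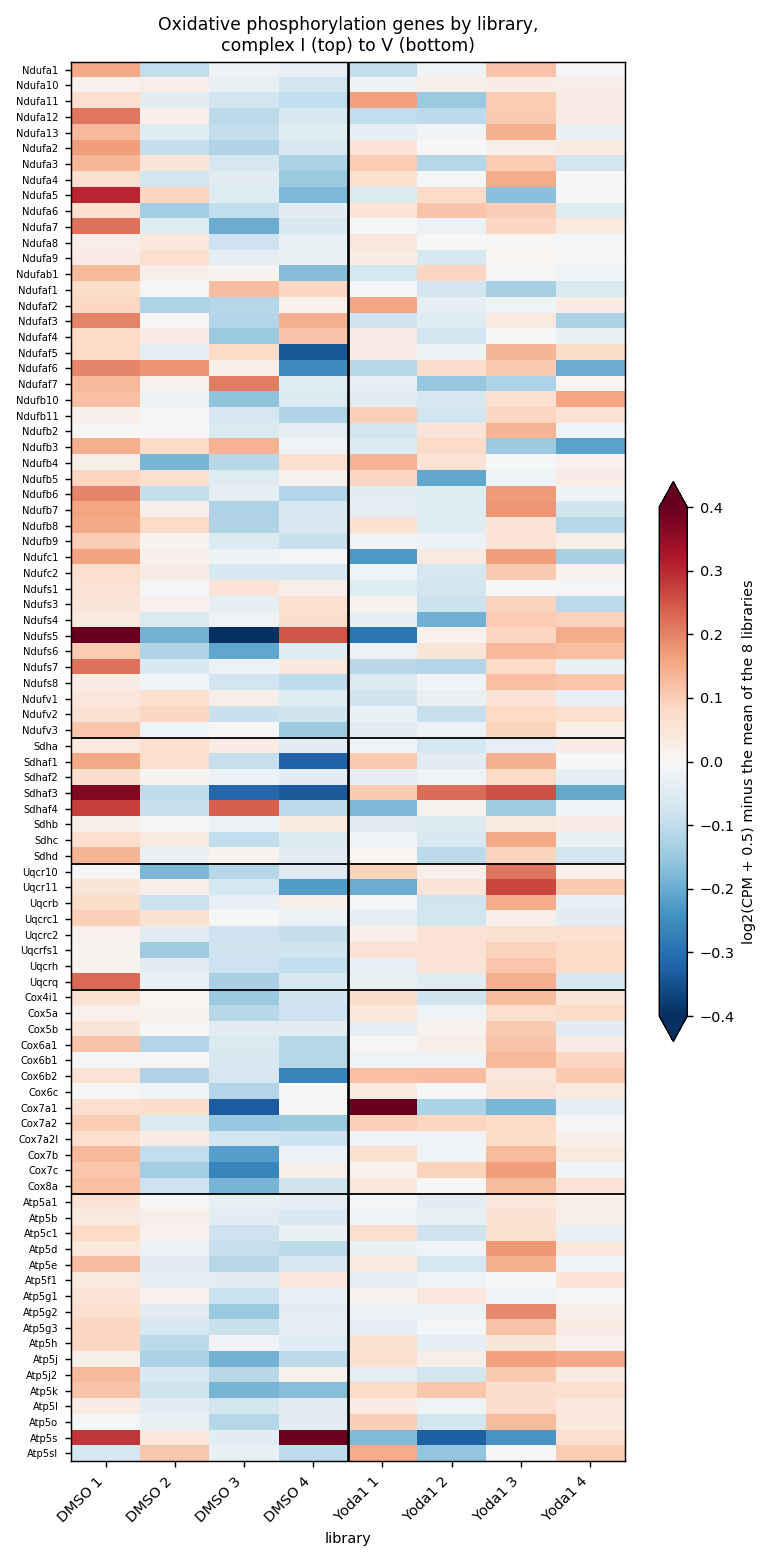
Rows are 89 of the 90 genes from complex I to V, columns the 8 libraries, and colour is log2(CPM + 0.5) minus the mean of the row. DMSO replicate 1 and Yoda1 replicate 3 are red for most genes, as in the 80.0% and 63.3% of members for which they are the highest library of their group.

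Leaving out DMSO replicate 1 changed the count of calls most. Without it, 13 members were called higher and 0 lower by edgeR, or 14.4%, against 12.1% of all genes tested in that fit. The 13 were Atp5j and Atp5k of complex V, Cox6a1, Cox6b2, Cox7a2, Cox7b, Cox7c and Cox8a of complex IV, Uqcr10, Uqcrc2, Uqcrfs1 and Uqcrh of complex III, and Ndufs6 of complex I. The median of complex IV then moved from 0.090 to 0.14, and that of all members from 0.024 to 0.060. Without DMSO replicate 2, Atp5j alone was called, or 1.11% of the members, against 7.36% of all genes tested in that fit. The remaining 6 omissions gave between 2 and 4 members called higher, and the omission of Yoda1 replicate 2 also gave 1 called lower, Ndufb3. In these 6 fits between 2.22% and 5.56% of the members were called, against between 7.26% and 9.57% of all genes tested.

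**Figure D5:**
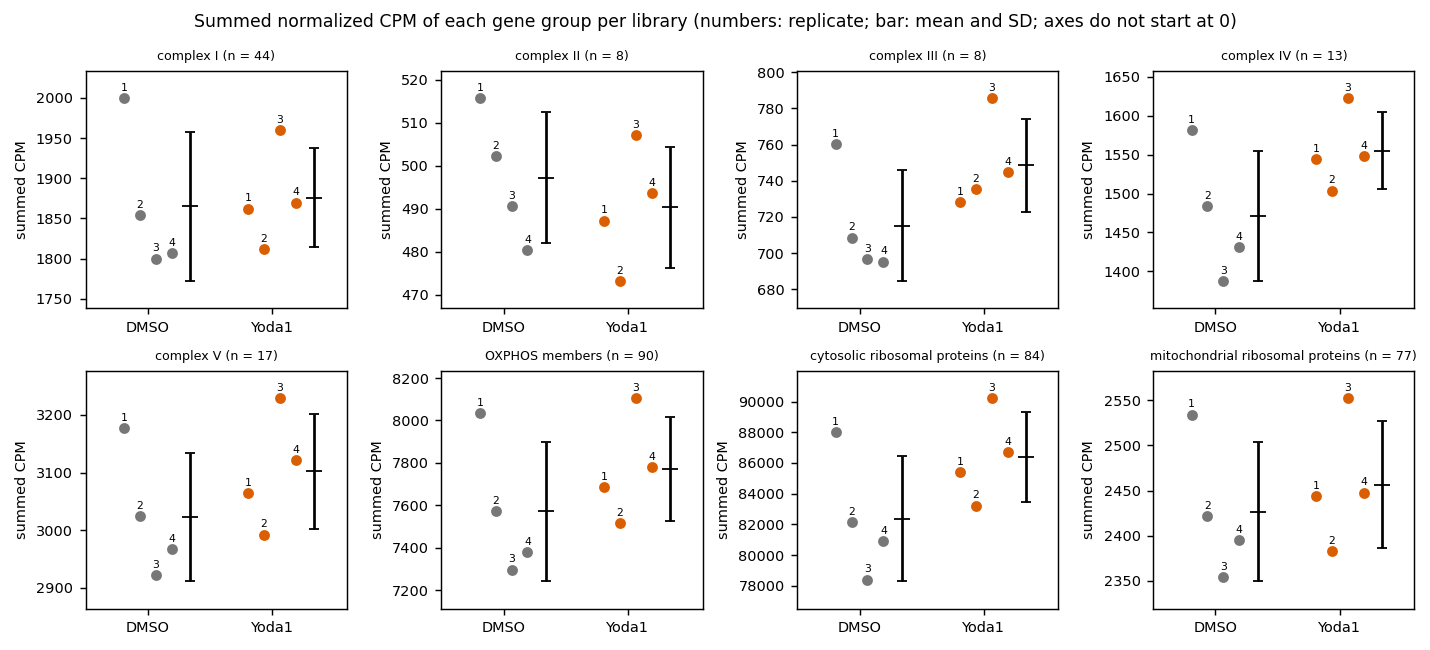
Summed normalized CPM (vertical axes, not starting at 0) of complex I to V, of all 90 members, and of cytosolic and mitochondrial ribosomal protein genes in each library, with replicate numbers at the points and the mean and SD beside them. DMSO replicate 1 and Yoda1 replicate 3 are the highest of their groups in every panel.

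The members' log2 fold changes also differed with transcript length. The members were short, with a median transcript of 870 bases against 2828 over all genes with an annotated transcript. Of the 51 members under 1000 bases, 41 lay above 0 with a median log2 fold change of 0.063, and of the 39 longer members 19 lay above 0 with a median of -0.0017. In complex I alone, 16 of 24 short genes and 6 of 20 longer genes lay above 0. With upper-quartile factors the counts over all members were 34 of 51 and 7 of 39. Among the 761 tested genes under 1000 bases that are neither members nor ribosomal proteins, 56.9% lay above 0 with a median of 0.026, against 47.3% and -0.0084 among the longer ones. Of cytosolic ribosomal protein genes, 60 of 63 short and 21 of 21 longer ones lay above 0, with medians of 0.071 and 0.066. Within each group, summed CPM was highest in DMSO replicate 1 and Yoda1 replicate 3 for short and for longer members. The sums were 3897 and 3983 CPM for short members, and 4137 and 4122 CPM for longer ones. The part of length in the shifts of complexes III, IV and V was not tested, and their short genes cannot be told apart from it here.

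Genes around the respiratory chain were counted from lists. Of the 10 tested electron carriers and other enzymes that reduce ubiquinone, 2 were called higher, or 20%, against 10.9% of all genes tested. Gpd2, the mitochondrial glycerol-3-phosphate dehydrogenase, measured 103, 112, 108 and 123 CPM in DMSO libraries and 123, 127, 130 and 124 CPM in Yoda1 libraries. Its groups did not overlap, although DMSO replicate 4 reached almost to the lowest Yoda1 library, and it rose by a log2 fold change of 0.18 with SE 0.045 and an adjusted p of 0.00916 by edgeR. Cycs, cytochrome c, measured 154, 144, 140 and 146 CPM in DMSO libraries and 159, 154, 165 and 156 CPM in Yoda1 libraries. It rose by 0.12 with an adjusted p of 0.0481 by edgeR, and this call sat at the threshold, with 0.0609 by DESeq2, 0.0573 by limma-voom and up to 0.153 over the 11 of 15 alternative fits in which it was lost.

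Of 36 assembly factors outside the naming rule, 1 was called higher and 0 lower, or 2.78%, against 10.9% of all genes tested. This was Higd2a, which aids assembly of supercomplexes, at 24.1 ± 1.74 CPM in DMSO and 28.2 ± 0.423 CPM in Yoda1 libraries, with groups that did not overlap, a log2 fold change of 0.22 and an adjusted p of 0.0221 by edgeR. Without DMSO replicate 3, DMSO replicate 4 or Yoda1 replicate 4 its adjusted p was 0.0896, 0.0610 and 0.0717. Of 17 TCA cycle enzymes, which feed electrons to the chain, 0 were called by edgeR, DESeq2 or limma-voom, 1 had an unadjusted p under 0.05 (5.88% against 25.3% of all genes tested), and the median was 0.00016. Of 8 tested genes of the mitochondrial calcium uniporter and related carriers, 0 were called by these tools, and 3 had an unadjusted p under 0.05 by edgeR, or 37.5% against 25.3% of all genes tested. Mcu, the pore, measured 26.4 ± 1.31 and 27.2 ± 1.37 CPM.

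Of 7 tested ADP, ATP and phosphate carriers and porins, 1 was called lower and 0 higher by edgeR and by limma-voom, and 1 lower and 1 higher by DESeq2. By edgeR this was 14.3%, against 10.9% of all genes tested. Slc25a5, an ADP/ATP carrier, had groups that did not overlap, a log2 fold change of 0.10 and an adjusted p of 0.0543 by edgeR. Ucp2, an inner-membrane carrier of the uncoupling protein family, measured 727, 725, 698 and 699 CPM in DMSO libraries and 612, 620, 641 and 643 CPM in Yoda1 libraries. These groups stood apart, and Ucp2 fell with a log2 fold change of -0.18, SE 0.034, and an adjusted p of 0.000565 by edgeR. Of 19 tested regulators of mitochondrial gene expression, 1 was called higher and 1 lower, or 10.5%, near the 10.9% of all genes tested. Polg, the catalytic subunit of the mitochondrial DNA polymerase, fell from 111 ± 1.199 to 99.5 ± 4.48 CPM, with a log2 fold change of -0.16 with an adjusted p of 0.00853 by edgeR. Polrmt, the mitochondrial RNA polymerase, rose from 28.2 ± 0.893 to 32.7 ± 3.21 CPM, with a log2 fold change of 0.22 with an adjusted p of 0.0298, and its adjusted p was between 0.0525 and 0.185 in 8 of the 15 alternative fits. Of 77 mitochondrial ribosomal protein genes, 1 was called higher and 0 lower, or 1.3%, against 10.9% of all genes tested, with a median of 0.017.

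Some members could share reads with other loci as far as the annotation tells, but no reads were examined. Exons of 33 of the 90 genes overlap exons of another gene, on the opposite strand for 30 and on the same strand for 4, and 22 match a pseudogene transcript with at least 95% identity over 100 bases or more. Among the called members, Atp5j has the overlap with Gabpa, and Uqcrfs1 and Uqcr10 have neither an overlap nor such a match.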

How the data were processed

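Bulk poly(A) RNA had been made into directional libraries from 8 samples, 4 of each group. What the authors deposited were integer counts of reads for each gene symbol, 1 table per library and not normalized. The submitters' processing notes name TopHat and mm10, whereas the methods name FASTX Trimmer, BB Map and then Cufflinks, so which aligner gave these counts, the annotation and the strand setting are not given in the sources used here.

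Low genes were removed with filterByExpr of edgeR 4.0.16 (R 4.3.3; minimum count 10, minimum total 15). The 12239 genes left were scaled with TMM and fitted with glmQLFit and glmQLFTest (robust) over all 8 libraries without covariates, and p-values were adjusted after Benjamini-Hochberg and called at 0.05. This replaced Cuffdiff of the methods, which needs alignments. The SE is the absolute log2 fold change divided by the root of F, and intervals are at 95%. For the called genes a two-sided exact permutation test over 70 splits was run beside it. No pair of libraries in a group agreed within counting noise (chi-square divided by genes, 2.04 to 6.94), so none was merged. Errors are SD.

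Positions, transcript lengths and overlaps were taken from GENCODE M21, where 99.3% of the tested symbols and all 90 members were found, with 1 transcript per gene. Pseudogene transcripts were searched with blastn 2.17.0, and promoters are those of RefSeq. Intervals cover counting error and the spread between these libraries only.

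The members and all gene lists were chosen with earlier results of these data known, so no list was tested as a set. Named by rule were the called members, in each complex the 2 most abundant genes and those with the highest and lowest log2 fold change, chosen catalytic subunits and paralog groups, and the called genes of each list, except 1 gene that is not reported here. Atp5sl, Cox7b2, Cyc1, Gabpa, Mcu, Ndufaf1, Slc25a5, the remaining subunits given for complexes II, III and V, and the genes called without DMSO replicate 1 were added with their values in view.

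The fit was first tested on simulated data. Alternatives were DESeq2 1.42.0, limma-voom (limma 3.58.1), scaling by library size or by upper quartiles, no filter, at least 10 counts in every sample, a replicate block, subunits only, and leaving out each library in turn.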

Additional observations from a re-analysis of the deposited data

Results flagged for a closer look

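Within groups of 4 libraries, the highest or lowest library of each named gene and of each summed level was compared with the rest, by the gap to its nearest neighbour as a share of the range. Of 84 such groups 2 had a library that stood apart, and chance alone gives about 1 in 20, or 4.2. For Cox7a1, Yoda1 replicate 1 measured 1.94 CPM against 1.13 CPM in the next Yoda1 library, at 13 to 24 counts per library. For Ndufa13, Yoda1 replicate 3 measured 96.9 CPM against 87.1 CPM in the next. Neither gene was called, and Yoda1 replicate 3 was also the highest Yoda1 library for 63.3% of the members.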

How the results depend on the processing

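With library size only, the log2 fold change turned negative for Atp5a1 (-0.014), Atp5b (-0.00077) and Cox5b (-0.0055), and 1 member, Ndufb3, was called lower. With upper-quartile factors it turned for the same 3 (-0.023, -0.0098 and -0.015) and for Atp5g1 (-0.0068), Cox7a2l (-0.00019) and Ndufa13 (-0.0015), 1 member was called higher (Atp5j) and 1 lower (Ndufb3), and 958 genes in all were called lower; the median of all genes then stood at -0.027 and -0.036. Among genes added with their values in view, Atp5c1, Atp5f1 and Uqcrb turned to -0.017, -0.021 and -0.0083 with library size only and to -0.026, -0.030 and -0.017 with upper-quartile factors, Sdhc to -0.0073 with the latter, and these 4 and Uqcrq also turned when some single library was left out. No gene named here whose sign turned was called in any of these fits. Uqcr10 was not called with either scaling, nor Uqcrfs1 with upper-quartile factors. With single libraries left out, members called higher ran from 1 to 13 and members called lower from 0 to 1, all genes called lower from 367 to 677, and the median of complex IV from 0.057 to 0.14. The share called in these fits ran from 1.11% to 14.4% of the members and from 7.26% to 12.1% of all genes tested. Over the same omissions the log2 fold change ran from -0.0038 to 0.027 for Atp5a1, from -0.00055 to 0.045 for Atp5g1, from -0.014 to 0.036 for Cox5b, from -0.10 to 0.22 for Cox7a1, from -0.011 to 0.080 for Ndufa13 and from -0.027 to 0.0025 for Sdhb. Apart from the construction of the scalings, the cause was not tested.

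The data did not show that equal replicate numbers pair the samples: same-numbered libraries deviated together with correlations of 0.048, 0.071, -0.028 and 0.00023, and 2 of 4 Yoda1 libraries correlated best with their own number. With so few libraries, these values cannot tell if equal numbers mark a shared mouse or culture. A fit with the replicate block called 966 genes against 1331, and 3 members higher and 0 lower; adjusted p was 0.0939 for Cycs and 0.0566 for Polrmt. DESeq2, limma-voom, the stricter filter and subunits only also gave 3 members higher and 0 lower, and no filter gave 4. Low depth limits Cox7a1, Sdhaf3 and Atp5s most.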
